A study of Mus musculus with 34 samples.

Results

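*Tbx2*, *Tbx3*, *Tbx15* and *Tbx18*, 4 genes for T-box transcription factors of limb bud mesenchyme, were read by gene symbol from an RNA-seq table of 22040 genes, and each symbol matched 1 row. RNA from E11.5 mouse limb buds was sequenced in 3 WT and 3 CKO biological replicates, to ask which genes change when the RNA- and DNA-binding protein Hnrnpk is lost. The CKO embryos were *Prrx1-Cre;Hnrnpk* fl/fl, so that the floxed exons of *Hnrnpk* were removed where the *Prrx1* enhancer drives Cre. These places are limb bud mesenchyme and calvarium but not the apical ectodermal ridge. The paper proposes incomplete removal in hindlimb as a possible reason for the only partial loss of hindlimbs. The WT embryos are labelled *Hnrnpk* WT, and whether they carried Cre or floxed alleles is not given in the sources used here. Embryos of both sexes were used, and the sources do not say how many embryos or which limbs made up a replicate. The values are FPKM, fragments scaled to exon length and to a size set for each library, which can be compared between genes because they are scaled by length. The reads on the listed genes, recovered from the FPKM, numbered 17221249, 23168847 and 20873107 in WT replicates 1 to 3, and 17143049, 21193395 and 24627743 in CKO replicates 1 to 3.

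T-box proteins bind DNA through a shared domain, and members of the family activate or repress transcription. *Tbx2* and *Tbx3* are close paralogs that act mainly as repressors; they are expressed along the anterior and posterior margins of the limb bud, respond to Shh and Bmp signals and take part in digit patterning. *Tbx15* and *Tbx18* form another pair of close paralogs with repressor activity. Both are expressed in proximal limb mesenchyme, where they act in the formation of the shoulder and pelvic girdles, and *Tbx18* also has known roles in somites and the ureter.

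On GRCm38, *Tbx2* (ENSMUSG00000000093) lies on chromosome 11 from 85832551 to 85841948 on the plus strand, and *Tbx3* (ENSMUSG00000018604) on chromosome 5 from 119670669 to 119684724 on the plus strand. *Tbx15* (ENSMUSG00000027868) lies on chromosome 3 from 99240381 to 99354259 on the plus strand, and *Tbx18* (ENSMUSG00000032419) on chromosome 9 from 87702800 to 87731260 on the minus strand. *Tbx2* and *Tbx3* each stand beside another T-box gene of the limb. *Tbx4*, a regulator of hindlimb outgrowth, starts 54 kb from *Tbx2*, and *Tbx5*, which is needed for the forelimb bud to form, starts 162 kb from *Tbx3*.

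The RefSeq promoter table held 1 of the 4 genes, *Tbx18*, and not *Tbx2*, *Tbx3* or *Tbx15*. The 250 bases before its annotated start (GRCm38.p6, chr9:87731261-87731510, minus strand) are shown because Hnrnpk is known to bind C-rich stretches of nucleic acid, with the C-rich word CCCTCCC in capitals.
Tbx18: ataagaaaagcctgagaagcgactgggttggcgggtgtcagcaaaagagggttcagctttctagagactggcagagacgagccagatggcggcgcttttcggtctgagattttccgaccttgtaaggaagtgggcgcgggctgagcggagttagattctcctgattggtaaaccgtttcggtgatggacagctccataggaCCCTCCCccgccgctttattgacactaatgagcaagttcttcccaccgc
This window has a GC content of 54%, against a median of 52.4% over 32851 RefSeq promoter windows of the same length. CCCTCCC, searched on both strands with GGGAGGG, was found 1 time, from position -49 to -43 before the start, and 19.7% of all windows hold it. The core of a T-box site, TCACACC or GGTGTGA, was found 0 times and is held by 3.33% of windows. The GC-rich core of Smad sites, GGCGCC, which reads the same on both strands, was found 0 times and is held by 9.59% of windows. These words are letters in 1 window, and binding to this sequence was not analysed here.

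*Hnrnpk* was examined first as a check of the labels. Its FPKM was 193, 195 and 185 in WT replicates 1 to 3, and 127, 142 and 135 in CKO replicates 1 to 3. Every CKO library lay below every WT library, as labelled, a separation in this direction shown by 8.86% of the 12305 tested genes, those averaging 0.5 FPKM or more. The log2 fold change of CKO against WT was -0.50 (standard error, SE, 0.13) on the log2(FPKM + 0.1) scale, which did not pass limma's test after Benjamini-Hochberg adjustment over all tested genes (adjusted *p* = 0.334; 0.0575 with the replicate number as a block; exact permutation *p* = 0.1, the smallest that 3 libraries against 3 allow). The adjusted *p* value was 0.0377 with replicates 2 and 3 alone and 0.0237 with limma voom on recovered reads and the block. The value is for the whole gene and does not separate the deleted exons from the others, and 330 of its exon bases overlap exons of *Rmi1* on the opposite strand. In these bulk samples, fewer cells that express a gene and less RNA per cell cannot be told apart.

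The libraries differed by replicate number as well as by genotype. In a principal component analysis, 52.6% of the variance lay on the first component, which set replicate 1 of both genotypes apart from replicates 2 and 3. The next component, with 26% of the variance, set the genotypes apart. The values of *Tbx2*, *Tbx3*, *Tbx15* and *Tbx18* are therefore given by replicate number.

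*Tbx15* had the highest level of the 4 genes. Its FPKM was 59.4, 59.3 and 61.7 in WT replicates 1 to 3, and 63.4, 44.4 and 51.3 in CKO replicates 1 to 3. The WT libraries lay close together, whereas CKO replicate 1 was above all of them and CKO replicates 2 and 3 below all of them, so the groups overlap. The WT mean was 60.1 ± 1.37 and the CKO mean 53.0 ± 9.58 (SD, n = 3 per group). The log2 fold change was -0.20 (SE 0.15; adjusted *p* = 0.808; exact permutation *p* = 0.4). The means differed by less than the SD of the CKO replicates, though by more than that of the WT replicates.

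*Tbx18* came second among the 4. Its FPKM was 27.1, 35.6 and 39.3 in WT replicates 1 to 3, and 27.3, 27.6 and 29.0 in CKO replicates 1 to 3. Here the spread lay in the WT group: WT replicate 1 was at the level of the 3 CKO libraries and WT replicates 2 and 3 were above them. The WT mean was 34.0 ± 6.26 and the CKO mean 27.9 ± 0.919 (SD, n = 3 per group). The log2 fold change was -0.26 (SE 0.15; adjusted *p* = 0.719; exact permutation *p* = 0.4). Of the *Tbx18* exon bases, 970 (20.6%) are shared with D030062O11Rik on the opposite strand, and whether the counting used the strand is not given in the sources used here, so reads of that transcript may be part of this value.

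*Tbx2* was the third of the 4. Its FPKM was 16.8, 21.0 and 19.6 in WT replicates 1 to 3, and 18.2, 16.3 and 17.8 in CKO replicates 1 to 3. WT replicate 1 lay among the CKO libraries. The WT mean was 19.1 ± 2.14 and the CKO mean 17.4 ± 1.0 (SD, n = 3 per group), and the log2 fold change was -0.13 (SE 0.13; adjusted *p* = 0.849; exact permutation *p* = 0.3).

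*Tbx3* had the lowest level of the 4 genes. Its FPKM was 13.7, 11.7 and 12.0 in WT replicates 1 to 3, and 14.1, 8.98 and 10.1 in CKO replicates 1 to 3. Replicate 1 was the highest library in both genotypes, and the groups overlap. The WT mean was 12.5 ± 1.11 and the CKO mean 11.1 ± 2.70 (SD, n = 3 per group), and the log2 fold change was -0.19 (SE 0.18; adjusted *p* = 0.838; exact permutation *p* = 0.5). Its exons share 115 bases (1.7%) with the antisense gene *Tbx3os1*.

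**Figure D1:**
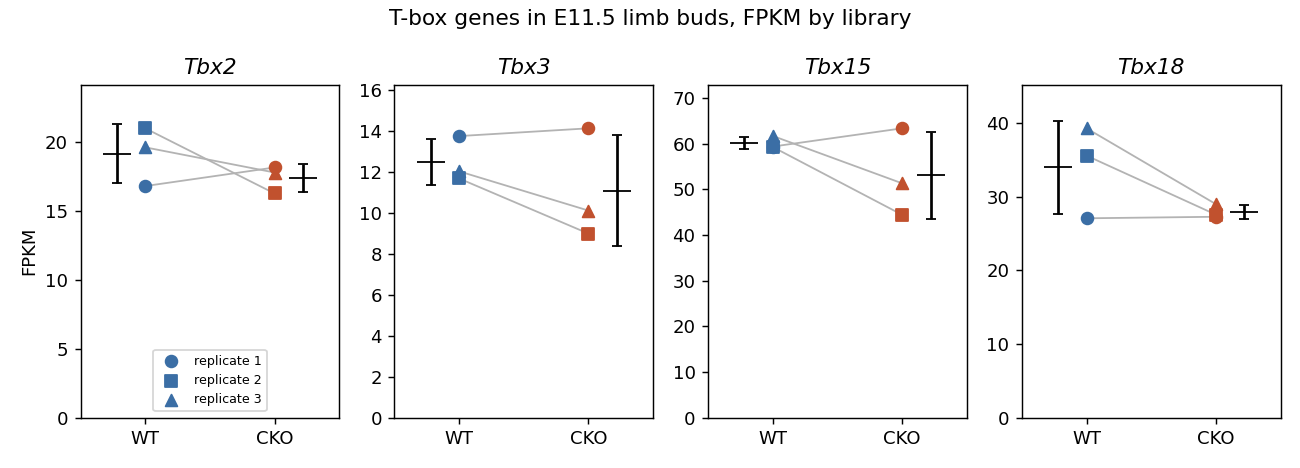
FPKM of *Tbx2*, *Tbx3*, *Tbx15* and *Tbx18* in each library, with WT in blue and CKO in red, symbols for the replicate number, grey lines joining libraries of the same number, and black bars for the mean ± SD (n = 3). The lines of replicate 1 are close to level, and those of replicates 2 and 3 run down to the CKO libraries.

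The order *Tbx15*, *Tbx18*, *Tbx2*, *Tbx3* held in each of the 6 libraries. The ranges of neighbours in this order do not overlap: *Tbx15* ran from 44.4 to 63.4, *Tbx18* from 27.1 to 39.3, *Tbx2* from 16.3 to 21.0 and *Tbx3* from 8.98 to 14.1 FPKM. Among all tested genes, 94.6% had a lower mean FPKM than *Tbx15*, 88.1% than *Tbx18*, 77.9% than *Tbx2* and 65.4% than *Tbx3*. Counting error was small beside these levels, since the values rested on at least 3188 reads for *Tbx15*, 2302 for *Tbx18*, 1099 for *Tbx2* and 1139 for *Tbx3* in a library. At these fewest reads, the counting error alone was 1.77% for *Tbx15*, 2.08% for *Tbx18*, 3.02% for *Tbx2* and 2.96% for *Tbx3*. For these genes in turn, the SD between replicates was 2.28%, 18.4%, 11.2% and 8.87% of the mean in WT. In CKO it was 18.1%, 3.29%, 5.75% and 24.4%.

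None of the 4 genes passed limma's adjusted threshold of 0.05 in the comparison of CKO with WT, and 0 of them had an unadjusted *p* value under 0.05. Over the table, 1 gene (0.00813% of those tested) passed downward and 7 (0.0569%) upward, and 1022 had an unadjusted *p* value under 0.05, so few genes of any kind were called. With the replicate number as a block, 0 of the 4 passed, against 207 downward calls (1.68%) and 139 upward calls (1.13%) over the table. *Tbx18* had an unadjusted *p* value of 0.0402 in that limma fit and an adjusted one of 0.244. A fold change under 0.5 with an unadjusted *p* value under 0.05, the form of threshold used in the study, was met by 30 genes (0.244%) and by 0 of the 4. Nor did 3 CKO libraries lie below 3 WT libraries for any of them.

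The 95% intervals of the limma fit bound the size of a change. As a ratio of CKO to WT, the interval ran from 0.746 to 1.12 for *Tbx2*, from 0.655 to 1.17 for *Tbx3*, from 0.685 to 1.11 for *Tbx15* and from 0.649 to 1.07 for *Tbx18*. A ratio of 0.5 lies outside all 4 of these intervals, and no change lies inside each. On the log2 scale, the interval of *Tbx18* with the replicate block ran from -0.515 to -0.014 and so left out no change, as did those of *Tbx3*, *Tbx15* and *Tbx18* with replicates 2 and 3 alone.

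**Figure D2:**
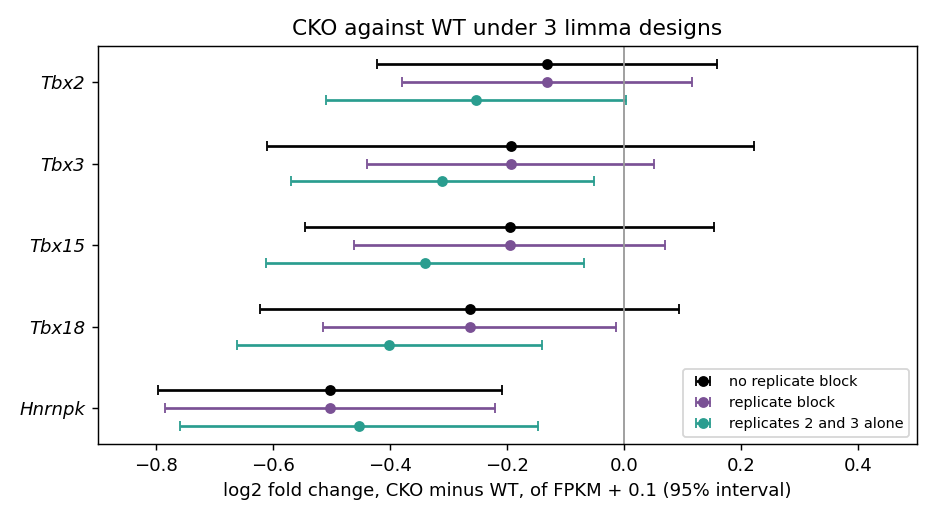
Log2 fold change of CKO against WT for the T-box genes and *Hnrnpk*, with 95% intervals not adjusted for the number of genes, from limma without the replicate block (black), with it (purple) and with replicates 2 and 3 alone (green). All points lie below 0, and with replicates 2 and 3 alone the T-box genes lie between -0.40 and -0.25.

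Within replicate numbers, the 4 genes shared a pattern. Between the replicate 1 libraries, CKO was not lower for any of them, with a ratio of CKO to WT FPKM of 1.08 for *Tbx2*, 1.03 for *Tbx3*, 1.07 for *Tbx15* and 1.01 for *Tbx18*. For *Tbx3* and *Tbx18* the excess over 1 is smaller than their counting error at the fewest reads (2.96% and 2.08%). The direction in replicate 1 is thus not settled for these genes. Between the replicate 2 libraries the ratio was 0.775 for *Tbx2*, 0.770 for *Tbx3*, 0.750 for *Tbx15* and 0.775 for *Tbx18*. Between the replicate 3 libraries it was 0.907 for *Tbx2*, 0.841 for *Tbx3*, 0.832 for *Tbx15* and 0.738 for *Tbx18*. *Hnrnpk* itself had ratios of 0.659, 0.730 and 0.731, lower in CKO replicate 1 as well.

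This pattern is common among the tested genes. CKO was not lower in replicate 1 and lower in replicates 2 and 3 for 1669 genes (13.6%), the 4 T-box genes among them. Lower values in replicates 2 and 3, whatever replicate 1 showed, were found for 4290 genes (34.9%), and lower values in all 3 numbers for 2621 genes (21.3%), with 0 of the 4. The genes were not chosen for this pattern, but it was seen in the values and was not tested.

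With replicates 2 and 3 alone, a comparison chosen with earlier results of these data known, *Tbx18* passed limma's adjusted threshold, with a log2 fold change of -0.40 (SE 0.13; adjusted *p* = 0.0307). *Tbx15* had -0.34 (adjusted *p* = 0.0806), *Tbx3* -0.31 (adjusted *p* = 0.0943) and *Tbx2* -0.25 (adjusted *p* = 0.180) in that limma fit. This fit called 984 genes downward (8% of those tested) and 867 upward, so that 1 of 4 stands beside a large background. The difference between replicate 1, with 1 library per genotype, and the others was not tested.

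Erythroid markers moved with the same replicate numbers. All 7 erythroid markers had a higher CKO mean on the log2 scale, with a median log2 difference between genotypes of -0.30 in replicate 1, 1.07 in replicate 2 and 0.43 in replicate 3, the reverse of the order of the median over the 4 T-box genes, which was 0.066, -0.37 and -0.26. Their summed FPKM was 35624, 61020 and 61830 in WT replicates 1 to 3, and 29097, 138311 and 82084 in CKO replicates 1 to 3. *Hbb-y*, an embryonic globin gene and the most abundant of them, had 14198, 31035 and 31698 in WT and 12266, 78176 and 41794 in CKO replicates 1 to 3, and none of the 7, *Hbb-bh1* and *Hba-x* included, was at 0. The 7 genes include 5 globin genes, and none passed the adjusted threshold without or with the block (limma adjusted *p* of *Hbb-y* 0.911). The part of erythroid RNA in the T-box values was not tested.

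Limb mesenchyme markers, which mark a tissue in which the T-box genes are expressed, had a lower CKO mean on the log2 scale for 4 of 5, with median log2 differences of -0.084, -0.22 and -0.095 in replicates 1 to 3. Their summed FPKM was 263, 285 and 272 in WT and 252, 238 and 259 in CKO replicates 1 to 3. The most abundant, *Twist1*, had a mean FPKM of 103 ± 11.1 in WT and 91.8 ± 9.31 in CKO (SD, n = 3 for either group). *Prrx1* had 59.2 ± 4.13 and 55.4 ± 4.81, and *Prrx2* had 49.3 ± 4.79 and 42.9 ± 2.98 (SD, n = 3 for either group). For *Pdgfra*, named after its values were seen, the CKO libraries (28.3, 28.9 and 26.0 FPKM) lay below the WT libraries (30.01, 33.5 and 30.3), as for 8.86% of tested genes. All 5 markers were above 0 in every library, none passed the adjusted threshold without or with the block, and their part in the T-box values was not tested.

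**Figure D3:**
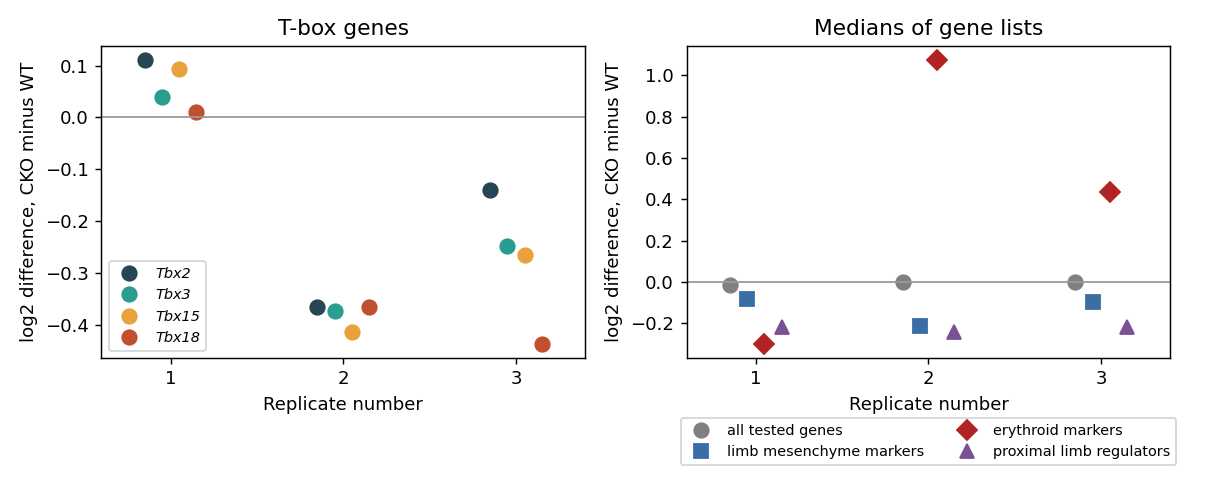
Log2 difference of CKO minus WT within each replicate number, for the 4 T-box genes (left) and as medians of gene lists (right; all tested genes, limb mesenchyme markers, erythroid markers and proximal limb regulators). The T-box genes lie between 0.011 and 0.11 in replicate 1 and below 0 in replicates 2 and 3, where the erythroid medians are 1.07 and 0.43.

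The ratio within each pair of paralogs differed between replicate 1 and the other replicates by more than between genotypes. *Tbx2* over *Tbx3* was 1.22, 1.80 and 1.63 in WT replicates 1 to 3, and 1.29, 1.81 and 1.76 in CKO replicates 1 to 3. *Tbx15* over *Tbx18* was 2.19, 1.67 and 1.57 in WT replicates 1 to 3, and 2.32, 1.61 and 1.77 in CKO replicates 1 to 3. In both genotypes, replicate 1 thus had the lowest share of *Tbx2* against *Tbx3* and the highest share of *Tbx15* against *Tbx18*. The log2 ratio differed between CKO and WT by 0.063 for *Tbx2* over *Tbx3* and by 0.069 for *Tbx15* over *Tbx18* (exact two-sided permutation *p* = 0.6 for each), less than the SD of 0.26 to 0.29 between replicates. Within replicate numbers, *Tbx2* over *Tbx3* was higher in CKO all 3 times (exact sign-flip *p* = 0.25, the smallest possible), and *Tbx15* over *Tbx18* was higher 2 times and lower once (sign-flip *p* = 0.5). A ratio within a library does not depend on how libraries were scaled.

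**Figure D4:**
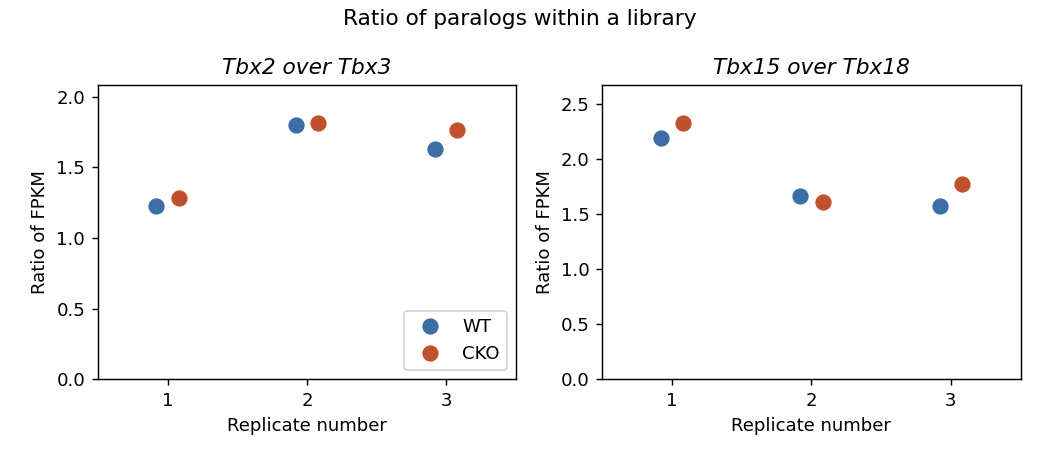
Ratio of FPKM between paralogs in each library, *Tbx2* over *Tbx3* on the left and *Tbx15* over *Tbx18* on the right, by replicate number, with WT in blue and CKO in red. Replicate 1 of both genotypes lies apart from replicates 2 and 3, at 1.22 and 1.29 for *Tbx2* over *Tbx3* and at 2.19 and 2.32 for *Tbx15* over *Tbx18*.

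Of the T-box family, 17 genes were in the table and 10 were tested. The 4 genes together made up 65.0%, 69.8% and 69.5% of the summed T-box FPKM in WT replicates 1 to 3, and 65.9%, 69.2% and 70.2% in CKO replicates 1 to 3. *Tbx15* alone held between 31.6% and 34.0%. The sum over the family was 180, 183 and 191 FPKM in WT, and 187, 140 and 154 FPKM in CKO replicates 1 to 3. This sum, most of it the 4 genes, was lower in CKO in replicates 2 and 3 and not in replicate 1. Of the other tested members, *Tbx1* (CKO over WT 1.14, 0.518 and 0.577 in replicates 1 to 3) and *Tbx4* (1.13, 0.917 and 0.957) were likewise lower in replicates 2 and 3 only, *Tbx5* was lower in all 3 and *Mga* and *Tbx6* in none, and *T* was lower in replicate 2 alone. With replicates 2 and 3 alone, *Tbx1* passed limma's adjusted threshold (adjusted *p* = 0.0052), as did *Tbx5* (adjusted *p* = 9.2e-08) and, as given above, *Tbx18*. In that fit, 984 of the 12305 tested genes (8%) passed downward.

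*Tbx5*, the forelimb regulator beside *Tbx3*, had 20.3, 19.1 and 19.2 FPKM in WT replicates 1 to 3, and 15.3, 7.30 and 9.58 FPKM in CKO replicates 1 to 3. Every CKO library was below every WT library, as for 8.86% of tested genes. The mean was 19.5 ± 0.649 in WT and 10.7 ± 4.13 in CKO (SD, n = 3 for either group), and the log2 fold change was -0.93 (SE 0.25; adjusted *p* = 0.358), and the gene passed with the replicate block (adjusted *p* = 0.0073). Its share of the T-box FPKM was 11.3%, 10.4% and 10.1% in WT and 8.20%, 5.19% and 6.21% in CKO replicates 1 to 3. *Tbx4*, the hindlimb regulator beside *Tbx2*, had a mean of 26.0 ± 1.53 in WT and 26.2 ± 4.53 in CKO (SD, n = 3 for either group), with a log2 fold change of -0.0033 (limma adjusted *p* = 0.997).

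Between the neighbours *Tbx3* and *Tbx5*, the ratio was higher in every CKO library. *Tbx3* over *Tbx5* was 0.678, 0.612 and 0.625 in WT replicates 1 to 3, and 0.922, 1.23 and 1.05 in CKO replicates 1 to 3, without overlap. *Tbx2* over *Tbx4* was 0.609, 0.855 and 0.757 in WT, and 0.581, 0.722 and 0.717 in CKO replicates 1 to 3, with overlap. These ratios were chosen after the values were seen and were not tested.

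The other tested T-box genes were at or below 14.0 FPKM in every library. *Mga*, which encodes a Max partner with a T-box domain, had a mean of 9.58 ± 2.70 in WT and 11.2 ± 2.64 in CKO (SD, n = 3 for either group), and its highest library in each genotype was replicate 1. *Tbx1*, a pharyngeal regulator, had 1.49 ± 0.768 and 0.950 ± 0.266, *Tbx6*, of the presomitic mesoderm, 0.766 ± 0.109 and 0.901 ± 0.204, and *T*, of the primitive streak and notochord, 0.592 ± 0.196 and 0.668 ± 0.185 (SD, n = 3 for either group). None of these 4 genes passed limma's adjusted threshold without or with the block. *Eomes*, *Tbr1*, *Tbx21*, *Tbx10*, *Tbx19*, *Tbx20* and *Tbx22* averaged under 0.5 FPKM and were left untested, with single values from 0 to 0.554.

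**Figure D5:**
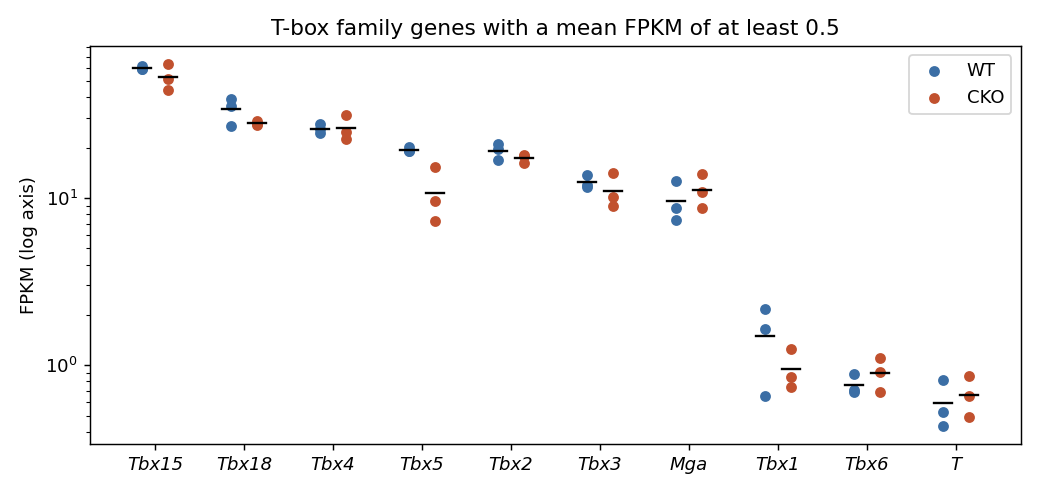
FPKM on a log axis of the 10 tested T-box genes, in order of their WT mean, with a point for each library (WT blue, CKO red) and a black line at the group mean. *Tbx15* is highest in both genotypes, and of the 10 genes *Tbx5* has its CKO points all below its WT points.

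The Shh and Bmp pathways act upstream of *Tbx2* and *Tbx3* in the limb bud margins. Of the 24 genes listed for them, 24 were tested, 12 with a higher and 12 with a lower CKO mean on the log2 scale, and 0 passed limma's adjusted threshold without or with the block, with 0 at an unadjusted *p* value under 0.05. Their median log2 fold change was 3.4e-05, against 0.0048 over all tested genes. *Id1*, *Id3* and *Id2*, targets of Bmp signals and the most abundant of the list, had log2 fold changes of -0.27, -0.053 and -0.16. *Id1* had 194, 255 and 231 FPKM in WT replicates 1 to 3, and 183, 190 and 188 FPKM in CKO replicates 1 to 3, so that its CKO libraries lay below its WT libraries, as did those of *Smo*, the Shh signal transducer, named after its values were seen. These 2 of 24 genes stand beside 8.86% of all tested genes. The ligands *Shh* and *Bmp4*, named after their values were seen, had 3.24 ± 0.390 and 22.6 ± 1.82 FPKM in WT and 3.37 ± 0.874 and 26.5 ± 2.65 FPKM in CKO (SD, n = 3 for either group), and *Fgf8*, a marker gene of the apical ectodermal ridge also named after its values were seen, had 8.14 ± 2.17 and 8.98 ± 1.61. By other measures, in situ hybridization and qPCR, the paper reports less *Shh* and *Fgf8* RNA in E11.5 CKO limb buds.

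Downstream, 12 genes that *Tbx2* or *Tbx3* are known to repress in various tissues were listed, and 10 were tested. Of these, 9 had a higher and 1 a lower CKO mean on the log2 scale, beside 6264 of all 12305 tested genes higher, with a median log2 fold change of 0.21 against 0.0048 over all tested genes. The gene that passed was *Cdkn1a*, which encodes the cell cycle inhibitor p21 and is also a target of p53. Its FPKM was 4.44, 6.60 and 5.59 in WT replicates 1 to 3, and 21.5, 26.5 and 28.3 in CKO replicates 1 to 3, a log2 fold change of 2.19 (SE 0.18; adjusted *p* = 0.0101), and its CKO values lay above the WT values, as for 5.63% of tested genes. Within replicates 1, 2 and 3 the log2 difference of *Cdkn1a* was 2.25, 1.99 and 2.32, and a link to *Tbx2* or *Tbx3* was not tested. *Gja1*, the gap junction gene connexin 43, had 31.8 ± 2.59 FPKM in WT and 38.1 ± 4.28 in CKO, and *Frzb*, a secreted Wnt inhibitor, had 31.2 ± 2.20 and 36.1 ± 4.26 (SD, n = 3 for either group); neither passed limma's threshold without or with the block. Between the replicate numbers, the median of the list was 0.11, 0.33 and 0.11.

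Corepressors and partners of T-box proteins had both higher and lower CKO means. All 9 genes listed were tested, 5 with a higher and 4 with a lower CKO mean on the log2 scale, with a median log2 fold change of 0.038, 0 past the adjusted threshold without or with the block, and 0 at an unadjusted *p* value under 0.05. The histone deacetylase genes *Hdac2* and *Hdac1* had 76.8 ± 8.50 and 62.6 ± 5.04 FPKM in WT and 80.2 ± 10.8 and 64.6 ± 9.04 in CKO (SD, n = 3 for either group). *Egr1*, whose protein has been described as a *Tbx2* partner, had 58.3, 34.5 and 37.5 FPKM in WT replicates 1 to 3, and 87.8, 45.1 and 44.0 FPKM in CKO replicates 1 to 3, higher in CKO within each number (limma adjusted *p* = 0.806; 0.0779 with the replicate block).

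Regulators of the proximal limb and girdles share their tissue with *Tbx15* and *Tbx18*. Of 11 listed genes, 10 were tested, and all 10 had a lower CKO mean on the log2 scale, as did 6041 of all 12305 tested genes, with a median log2 fold change of -0.17. Without the block 0 passed limma's adjusted threshold and 1 had an unadjusted *p* value under 0.05, and with the replicate block 2 passed downward, as did 1.68% of tested genes. Their median was below 0 in each replicate number, at -0.22, -0.24 and -0.22.

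The 2 genes were the homeobox gene *Alx4* and the paired box gene *Pax1*, which acts in the scapula and the vertebral column. *Alx4* had 16.3, 9.56 and 9.92 in WT, and 11.4, 6.27 and 7.48 in CKO replicates 1 to 3 (log2 fold change -0.51, limma adjusted *p* = 0.696, and 0.0266 with the block). *Pax1* had 3.75, 4.29 and 4.07 in WT, and 3.26, 1.55 and 2.26 in CKO replicates 1 to 3 (log2 fold change -0.81, limma adjusted *p* = 0.430, and 0.0414 with the block). Both were lower in CKO within each of the 3 numbers, and for *Pax1* the groups did not overlap, with CKO below WT as for 8.86% of tested genes. The most abundant genes of the list were *Prrx1*, described above, *Pbx2*, a homeobox gene, with a log2 fold change of -0.084, and *Gli3*, a transcription factor gene of the Shh pathway, with -0.13.

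Within 500 kb of a start site, the table held 5 genes near *Tbx2*, 2 near *Tbx3*, 5 near *Tbx15* and 1 near *Tbx18*, of which 4, 2, 3 and 1 were tested. Apart from *Tbx5*, none passed limma's adjusted threshold without or with the block. Near *Tbx2*, *Bcas3*, *Brip1* and *Ints2* had log2 fold changes of 0.12, 0.044 and 0.16, and *Gm11444*, 18 kb away, was not tested. *Rbm19* near *Tbx3* had 0.16, and *Cep162* near *Tbx18* had 0.12.

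Of the 5 genes near *Tbx15*, 3 are steroid dehydrogenase genes of the *Hsd3b* group. *Hsd3b6*, 426 kb away, had 36.1, 58.3 and 66.4 FPKM in WT replicates 1 to 3, and 36.8, 149 and 92.2 FPKM in CKO replicates 1 to 3, so it was highest where the erythroid markers were highest and *Tbx15* was lowest. *Hsd3b1* had a log2 fold change of 0.47 and *Wars2*, the closest at 99 kb, of 0.25. *Hsd3b3* and *Hao2* had a mean FPKM under 0.5.

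The genes most like each T-box gene were sought by Pearson correlation of log2(FPKM + 0.1) over the 6 libraries, among 7430 other tested genes averaging 5 FPKM or more. The libraries share genotype and replicate differences, so high values are common, and the correlations are a description. *Tbx2* was most like *Blcap* (r = 0.996), *Dis3l* (r = 0.981) and 1700030K09Rik (r = 0.980). *Tbx3* was most like *Zfp827* (r = 0.998), *Acin1* (r = 0.998) and *Farp1* (r = 0.997). *Tbx15* was most like *Fbxl19* (r = 0.996), *Tcf7l2* (r = 0.992) and *Zdhhc7* (r = 0.989), and *Tbx18* most like *Pi4kb* (r = 0.994), *Tgfbi* (r = 0.992) and *Rassf8* (r = 0.983).

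Among themselves, the highest correlations of the T-box genes were not those of the paralogs. *Tbx3* and *Tbx15* had r = 0.918 and *Tbx2* and *Tbx18* had r = 0.831, whereas *Tbx2* and *Tbx3* had r = 0.256 and *Tbx15* and *Tbx18* had r = 0.371, all over 6 libraries. *Tbx2* and *Tbx15* had r = 0.591, and *Tbx3* and *Tbx18* had r = 0.0038. By likeness to *Tbx3*, *Tbx15* ranked 472 of the 7430 genes, and by likeness to *Tbx2*, *Tbx18* ranked 181, so many other genes were more alike to them. In the values, *Tbx2* and *Tbx18* were low in WT replicate 1 and *Tbx3* and *Tbx15* were not. *Tgfbi*, an extracellular matrix gene, shows the *Tbx18* shape at a lower level, with 9.67, 14.7 and 15.6 FPKM in WT replicates 1 to 3, and 9.67, 9.60 and 10.3 FPKM in CKO replicates 1 to 3.

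The remaining markers describe what the samples held. Ectoderm markers had summed FPKM of 31.3, 49.8 and 56.5 in WT and 37.5, 58.1 and 57.5 in CKO replicates 1 to 3, with *Krt5* highest on average, and *Krt14* and *Epcam* above 0 in every library. Endothelial markers (*Cdh5* highest, then *Pecam1* and *Kdr*) summed to 26.5, 18.2 and 20.5 in WT and 13.0, 21.8 and 19.1 in CKO. Myogenic markers (*Myog* highest, then *Myod1* and *Lbx1*) summed to 13.9, 29.0 and 26.0 in WT and 25.1, 32.2 and 30.4 in CKO. Among the WT libraries this sum was lowest in replicate 1, as were *Tbx2* and *Tbx18*, but not every myogenic marker was. *Myog* had 2.23, 13.6 and 11.2 FPKM in WT replicates 1 to 3, whereas *Lbx1* had 4.89, 4.83 and 4.28. On the log2 scale the CKO mean was higher for 5 of 6 tested ectoderm, 0 of 5 endothelial and 5 of 5 myogenic markers, and none was at 0 in all libraries. The CKO libraries lay above the WT libraries for 1 ectoderm and 1 myogenic marker, as for 5.63% of tested genes. None of the genes in these 3 lists passed limma's adjusted threshold without or with the block, and their part in the T-box values was not tested.

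Macrophage markers (*Csf1r*, *C1qa* and *Adgre1* highest) summed to between 8.57 and 14.2 FPKM, and Schwann precursor markers (*Sox10* and *Foxd3*) to between 0.682 and 2.56. *Tbx18* is also a gene of somites and mesothelium. Somite markers summed to 34.3, 53.7 and 51.3 in WT and 36.7, 49.6 and 43.4 in CKO replicates 1 to 3, most of it *Meox2*, which limb muscle precursors also express, followed by *Tcf15* and *Meox1*. All 4 tested somite markers had a lower CKO mean on the log2 scale, against 1 of 4 macrophage markers and 0 of 1 of Schwann precursors, and none of them passed limma's adjusted threshold without or with the block. The median log2 difference of the somite markers was 0.10, -0.30 and -0.35 in replicates 1 to 3, with the signs of the median over the 4 T-box genes. The medians of the Shh and Bmp list and of the proximal and distal limb list had the same signs. So had *Sox10*, the only tested Schwann precursor marker. The proximal and distal list is mixed, since in replicate 1 *Meis2* was lower in CKO and *Hoxa13* and *Hoxd13* were higher. The part of these genes in the T-box values was not tested. Mesothelium markers were near the floor, with *Wt1* and *Upk3b* at or under 0.236 FPKM and *Msln* at 0 in all libraries.

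Forelimb and hindlimb markers were both present in every library. On the log2 scale, 3 of the 5 had a higher and 2 a lower CKO mean. *Pitx1*, a hindlimb gene, had 37.7, 46.6 and 39.8 FPKM in WT replicates 1 to 3, and 48.9, 47.9 and 49.9 in CKO replicates 1 to 3, and *Hoxc10*, also of the hindlimb, had 18.5, 18.1 and 17.8, and 22.8, 20.1 and 23.4. The CKO libraries lay above the WT libraries for both, as for 5.63% of tested genes, and neither passed limma's threshold without or with the block (adjusted *p* = 0.663 and 0.561). Of the list, *Tbx5* alone passed with the block, downward, as did 1.68% of tested genes. The share of forelimb and hindlimb tissue in a library was not measured apart, so its part in the T-box values was not tested.

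Of the markers of proximal and distal limb, *Hoxd13*, a distal gene, had 54.7, 115 and 123 FPKM in WT replicates 1 to 3, and 92.1, 107 and 120 FPKM in CKO replicates 1 to 3, again lowest in WT replicate 1. *Hoxa13* had 18.9, 26.6 and 30.5, and 33.6, 30.2 and 33.4. The proximal gene *Meis2* had 11.0, 6.28 and 6.27 in WT, and 8.58, 5.26 and 5.16 in CKO replicates 1 to 3, highest in replicate 1 of both genotypes. None of the 4 genes of this list passed limma's adjusted threshold without or with the block, and their part in the T-box values was not tested.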

How the data were processed

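Stranded mRNA libraries of E11.5 limb buds from 3 WT and 3 CKO replicates were analysed here; the other assays of the study were not. The authors deposited 1 table of FPKM per gene and library. The submitters' processing notes name cutadapt 2.5, HISAT2 2.1.0 and featureCounts 1.6.3 and the build mm10, without roles, and the annotation and strand setting of the counting are not given in the sources used here. Of the gene identifiers, 99.9% were found in GENCODE vM21 (GRCm38). FPKM times merged exon length and a scaling size for each library gave whole reads, within 0.1 reads, in all libraries for 92.7% of these genes. The scaling sizes so found were 18026059, 23935513 and 21810389 in WT and 18099465, 19146568 and 23848044 in CKO (replicates 1 to 3). Reads on listed genes exceeded this size 1.11 and 1.03 times in CKO replicates 2 and 3 and were 0.947 to 0.968 of it elsewhere. The depth limits genes with few reads.

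The deposited FPKM were not rescaled. Genes averaging 0.5 FPKM or more were tested on log2(FPKM + 0.1), a scale that understates changes of low genes, with limma 3.58.1 (mean-variance trend) in R 4.3.3, and *p* values were adjusted over all 12305 tested genes by the Benjamini-Hochberg method. Single values were compared by exact two-sided permutation. Gene lists were described by counts and medians without a set test. The model was tested on simulated data. Tables and figures were made in Python 3.11.15 with pandas 2.3.3, numpy 2.4.6 and matplotlib 3.10.9.

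Groups share replicate numbers in the labels, whose meaning is not given. Deviations from the group means, correlated across genes, had r = 0.636, 0.443 and 0.266 within numbers 1, 2 and 3. As each exceeded 0.1, same-numbered libraries were taken as pairs in the fits with the replicate block and in the differences within numbers. The main fit had no block. Between unlike numbers r ran from -0.597 to 0.495, so the pairing rests mainly on replicate 1. Within a genotype, no libraries agreed within sampling noise (chi-square over degrees of freedom from 10.1).

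The members and lists were chosen with earlier results of these data known. After the values were seen, 3 list genes that are not reported here were taken out of the lists, for a reason other than their values, and the list counts and medians computed again, and the counts of direction for the marker lists were added. Named are the 4 genes, *Hnrnpk*, the T-box family, genes of other lists past the adjusted threshold without or with the block and, where fewer than 3 pass, the 3 most abundant, table genes within 500 kb of a member's start, and for each member the 3 genes with the highest Pearson correlation among those with a mean FPKM of at least 5. Outside this rule, *Pdgfra*, *Smo*, *Shh*, *Bmp4* and *Fgf8* were named after their values were seen. Alternatives were pseudocounts of 0.5 and 1, no filter, a minimum mean of 1 FPKM, median-ratio and quantile scaling, no trend, the replicate block, replicates 2 and 3 alone, voom on recovered reads without and with the block, and each library left out.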

Additional observations from a re-analysis of the deposited data

How the results depend on the processing

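The log2 fold changes of *Tbx2*, *Tbx3*, *Tbx15* and *Tbx18* stayed below 0 under all 17 alternatives, and with limma's adjusted threshold all calls but 1 were as in the report. The exception was *Tbx18* with replicates 2 and 3 alone, at -0.40 (adjusted *p* = 0.0307; over its 17 alternatives from 0.0307 to 1.0). The replicate block left the values at -0.13 for *Tbx2*, -0.19 for *Tbx3*, -0.20 for *Tbx15* and -0.26 for *Tbx18* and changed no call among these genes or *Hnrnpk*. *Hnrnpk* passed with replicates 2 and 3 alone (-0.45) and with voom on recovered reads and the block (-0.49). With 1 library left out, the values ran from -0.22 to -0.062 for *Tbx2*, from -0.38 to -0.059 for *Tbx3*, from -0.33 to -0.076 for *Tbx15*, from -0.42 to -0.15 for *Tbx18* and from -0.54 to -0.46 for *Hnrnpk*. The log2 ratio differences ran from -0.098 to 0.22 for *Tbx2* over *Tbx3* and from -0.084 to 0.21 for *Tbx15* over *Tbx18*, and changed sign when WT1, CKO2 or CKO3 was left out for the first and when WT3 or CKO1 was left out for the second. With 3 differences within numbers, the exact sign-flip *p* of the ratios was 0.25, the smallest possible, and 0.5.

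The 8 genes called over the table became 14 with quantile normalization, 346 with the replicate block, 1851 with replicates 2 and 3 alone and 628 with voom and the block. With 1 library left out they ran from 1 (leaving out CKO replicate 2 or 3 or WT replicate 3; 3 leaving out WT replicate 2) to 23 (without CKO replicate 1). The 82 genes past the fold and unadjusted *p* threshold became 38 and 15 with pseudocounts of 0.5 and 1, 162 without a filter, 47 with a mean FPKM of at least 1 and 184 with replicates 2 and 3 alone, and ran from 73 to 168 with 1 library left out (140 without WT replicate 1, 168 without CKO replicate 1). The 30 downward genes among the 82 became 8 and 3 with pseudocounts of 0.5 and 1, 59 without a filter and 19 with a mean FPKM of at least 1. They became 102 with replicates 2 and 3 alone, 48 with voom and the block, 81 without WT replicate 1 and 55 without CKO replicate 1. Over 101 tested genes of all lists, 1 passed without and 4 with the replicate block, 3 of them downward. Apart from the changes that follow from fewer libraries or other genes tested, the cause was not tested.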
